A study of Rattus norvegicus with 8 samples.

Results

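The 10 genes described here encode subunits of the transcription factor NF-kB (*Nfkb1*, *Nfkb2*, *Rela* and *Relb*), proteins of its inhibitory and feedback arm (*Nfkbia*, *Nfkbiz*, *Bcl3* and *Tnfaip3*) and both receptors for tumour necrosis factor, TNF (*Tnfrsf1a* and *Tnfrsf1b*). They are a list of names, drawn up with earlier results of these data known, and no threshold on a measured value was applied. Of the 15159 rat genes for which a probe of the array could be named, 6 are among them, namely *Nfkb2*, *Rela*, *Bcl3*, *Nfkbia*, *Tnfrsf1a* and *Tnfrsf1b*, and *Nfkb1*, *Relb*, *Nfkbiz* and *Tnfaip3* were not analysed here. To look for genes that act downstream of retinoic acid (RA), the active derivative of vitamin A, male F344N rats held in short days were given all-trans RA or vehicle through a cannula into the third ventricle, and hypothalamic blocks were taken the next day. The labels give the RA as 1e-05 M and the vehicle as saline, whereas the methods give a higher concentration for these rats and DMSO in saline as the vehicle. RNA of 4 RA-injected and 4 vehicle-injected rats was hybridised to 8 two-colour arrays, of which arrays 1, 3, 6 and 8 carried RA in Cy5 and arrays 2, 4, 5 and 7 in Cy3. Cannula surgery and short days were common to both groups. The slide carried its arrays in 2 rows, of which the first held arrays 1 to 4 and the second arrays 5 to 8, both with both dye orders. Which RNA went on which array is not stated, so the rats and the slide row cannot be told apart.

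NF-kB is a family of dimeric transcription factors kept in the cytoplasm by inhibitor-of-kappaB (IkB) proteins. When TNF binds its receptors, adaptor proteins and kinases are recruited, the IkB proteins are degraded and the dimers enter the nucleus, where they bind kappaB sites in the DNA and switch on genes of inflammation. Many of these genes encode parts of the pathway itself, among them IkB proteins and some of the subunits, which gives the pathway its well known feedback. In the brain it is best known for the response of glia, endothelium and invading leukocytes to injury and inflammation.

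The share of probes that stood well above background ran from 57.4% to 74.6% for RA and from 61.2% to 74.5% for vehicle. The brightest probe of each of the 6 genes was well above background in both channels on 8 of 8 arrays. Arrays 5 to 8 stood apart from arrays 1 to 4, with an SD of the log2 ratios of all probes of 0.256 to 0.293 against 0.187 to 0.200. The ratios of the 6 genes are therefore also given by slide row. As to the labelled tissue, 12 of 13 hypothalamic peptide genes had a named probe and all 12 were well above background.

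RA was followed by higher mRNA of the TNF receptors, of *Nfkb2* and above all of *Bcl3*, while *Nfkbia* and *Rela* did not pass the test. At an unadjusted limma p under 0.01, the cut-off by which the study counted genes within pathways, 4 of the 6 genes were higher after RA and 0 were lower. The p here is the largest over 24 pairings of the arrays, whereas the study took the dye swaps as a block. Of all 15159 genes, 3.52% were called higher at this threshold and 0.792% lower. The median log2 ratio of RA over vehicle over the 6 genes was 0.47, against -0.00471 over all genes. All 6 means were above 0, as were 47.6% of those of all genes. The ratio was above 0 on 8 of 8 arrays for 4 of the 6 genes and for 4.07% of all genes. No gene passed an adjusted p under 0.05 in limma with the largest p over all possible array pairs, where the lowest adjusted p of any probe was 0.222. At an unadjusted p under 0.05, 5 of the 6 genes were called higher, beside 8.48% of all genes. When the pair was taken as a random block in limma, 4 of the 6 passed an unadjusted p under 0.01, beside 6.87% of all genes in either direction. In that random-block fit in limma *Bcl3* (adjusted p = 0.0295) and *Tnfrsf1b* (adjusted p = 0.0394) passed an adjusted p under 0.05, beside 1.17% of all genes. That fit gave all probes the same correlation within pairs, at most 0.371 over the pairings. Its p values may be too small for a gene whose dye swaps agree more closely. The calls also differed between processing settings. After plain background subtraction 2 of the 6 genes passed, beside 1.25% of all genes, and with Agilent's own log ratio 0, beside 1.42%. Without background correction 4 passed, beside 4.26%, and the cause of these differences was not tested. The p values measure the spread between pairs of arrays, which may in part be technical, and the number of arrays limits their precision.

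**Figure D1:**
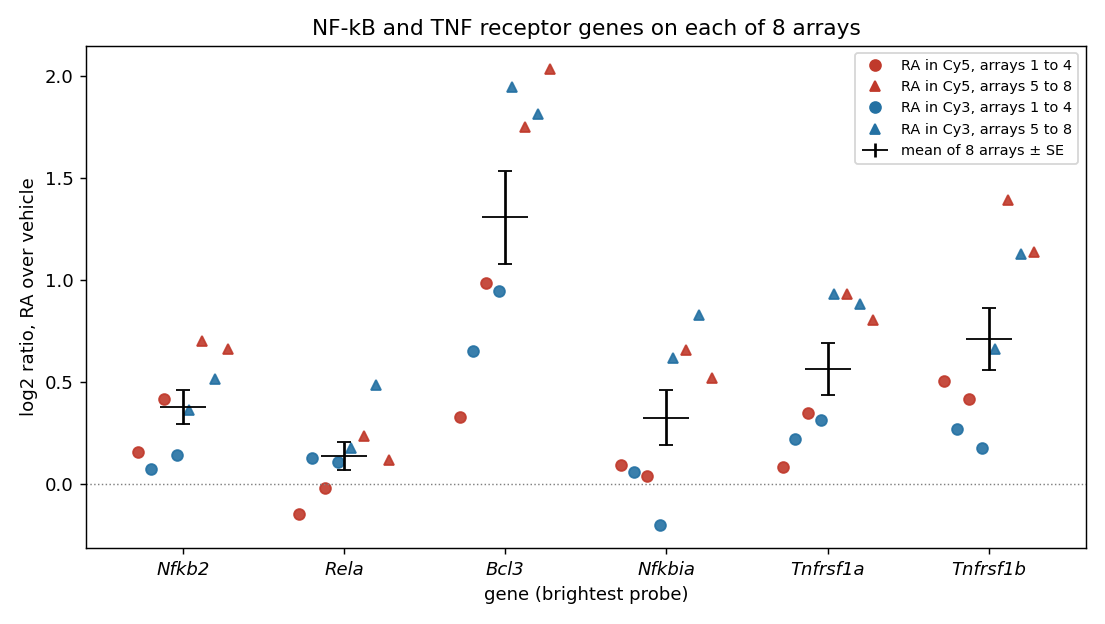
Log2 ratio of RA over vehicle on each array for the 6 measured genes, red where RA was in Cy5 and blue where it was in Cy3, arrays 1 to 4 as circles and arrays 5 to 8 as triangles, and the mean of 8 arrays ± SE in black. The triangles of *Bcl3*, *Nfkbia*, *Tnfrsf1a* and *Tnfrsf1b* lie above all circles of the same gene, and *Bcl3* has the highest mean, 1.31.

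The promoters of the 4 genes that passed the test are shown because kappaB sites are how NF-kB acts back on its own pathway. Each runs 5′ to 3′ on the strand of the gene, from 250 bases before the annotated transcript start to 50 after it, taken from RefSeq on GRCr8. Letters that match the 10-base kappaB consensus on either strand are in capitals. The windows are chr1:88613506-88613805 (minus strand) for *Bcl3*, chr1:255108124-255108423 (plus strand) for *Nfkb2*, chr4:159836869-159837168 (plus strand) for *Tnfrsf1a* and chr5:162387362-162387661 (minus strand) for *Tnfrsf1b*.
Bcl3: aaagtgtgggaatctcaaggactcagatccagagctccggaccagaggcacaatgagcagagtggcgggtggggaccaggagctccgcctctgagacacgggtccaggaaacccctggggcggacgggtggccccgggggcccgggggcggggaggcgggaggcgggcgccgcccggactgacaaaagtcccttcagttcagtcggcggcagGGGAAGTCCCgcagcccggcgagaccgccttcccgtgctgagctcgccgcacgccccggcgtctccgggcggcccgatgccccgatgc
Nfkb2: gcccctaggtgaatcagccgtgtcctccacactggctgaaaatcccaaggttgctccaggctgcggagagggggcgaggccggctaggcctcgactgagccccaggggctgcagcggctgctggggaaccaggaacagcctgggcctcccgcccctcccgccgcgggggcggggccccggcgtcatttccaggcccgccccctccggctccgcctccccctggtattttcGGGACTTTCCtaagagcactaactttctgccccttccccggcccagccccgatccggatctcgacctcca
Tnfrsf1a: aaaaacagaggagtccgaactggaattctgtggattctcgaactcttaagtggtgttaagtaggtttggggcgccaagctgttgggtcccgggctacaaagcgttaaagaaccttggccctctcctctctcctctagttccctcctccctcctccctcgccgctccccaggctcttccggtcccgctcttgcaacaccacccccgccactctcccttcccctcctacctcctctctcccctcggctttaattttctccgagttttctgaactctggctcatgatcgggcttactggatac
Tnfrsf1b: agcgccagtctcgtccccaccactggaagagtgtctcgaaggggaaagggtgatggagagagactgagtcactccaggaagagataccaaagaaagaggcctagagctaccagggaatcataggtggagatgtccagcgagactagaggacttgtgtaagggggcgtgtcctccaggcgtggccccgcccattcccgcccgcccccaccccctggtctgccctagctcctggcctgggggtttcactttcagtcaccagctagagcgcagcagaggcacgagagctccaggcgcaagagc
The *Bcl3* window held 1 match, at positions -38 to -29 counted from the transcript start as 0, and it read as a match on both strands. The *Nfkb2* window held 1 match, at -20 to -11. No letters of the *Tnfrsf1a* and *Tnfrsf1b* windows matched the consensus. Among the other genes of the group, *Nfkbia* (-31 to -22, on the opposite strand), *Nfkb1* (3 to 12), *Nfkbiz* (-13 to -4) and *Tnfaip3* (matches starting at -170, -67 and -55) each held at least 1 match, and *Rela* held none. In all, 6 of the 9 promoters found in the table had a match, as did 7.51% of 33469 rat promoters of the same length, and *Relb* was not in the table. The DR5 retinoic acid response element was matched by 0 of the 9 promoters and by 0.382% of all. These are matches of letters, not measured binding.

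*Nfkb2* encodes the precursor of a subunit of the non-canonical branch of the pathway and was measured by probe A_42_P658264. Its log2 ratio of RA over vehicle was 0.16, 0.07, 0.42 and 0.14 on arrays 1 to 4 and 0.36, 0.70, 0.51 and 0.66 on arrays 5 to 8. It was thus above 0 on all 8 arrays, and both slide rows overlapped, since array 3 (0.42) exceeded array 5 (0.36). The mean was 0.38 ± 0.08 (SE, 1.30-fold), with an unadjusted limma p of 0.00241, or 0.257 after adjustment. The arrays with RA in Cy5 averaged 0.48 and those with RA in Cy3 0.27, and the latter alone gave a limma p of 0.0109. Within arrays 1 to 4, with dye swaps counted as replicates, the mean was 0.20 and the limma p 0.0171, and without arrays 8 and 5 the p was 0.0124, neither under 0.01.

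*Rela* encodes the main transactivating subunit of the canonical pathway and was measured by probe A_64_P046388. Its log2 ratio was -0.15, 0.13, -0.02 and 0.11 on arrays 1 to 4 and 0.18, 0.24, 0.485 and 0.12 on arrays 5 to 8. The values lay on both sides of 0 in the first row and above 0 in the second, and the rows overlapped. The mean of 0.14 ± 0.07 (SE, 1.10-fold) had an unadjusted limma p of 0.0841, or 0.535 after adjustment. A dimmer second probe, A_44_P184726, had a mean of -0.05 (unadjusted limma p of 0.474), and was well above background on only 3 arrays in the RA channel and 4 in the vehicle channel. The 2 probes of *Rela* therefore differed in sign.

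*Bcl3* encodes an atypical IkB protein, which works in the nucleus as a partner of NF-kB subunits rather than holding them in the cytoplasm, and was measured by probe A_42_P577431. Its log2 ratio was 0.33, 0.65, 0.99 and 0.95 on arrays 1 to 4. On arrays 5 to 8 it was 1.95, 1.75, 1.815 and 2.04, all above every value of the first row. The mean of 1.31 ± 0.23 (SE, 2.48-fold) was the largest of the 6 genes and ranked 39 by rise among 15159 genes. The unadjusted limma p was 0.000635, or 0.222 after adjustment, and it was under 0.01 in all 24 pairings of the arrays. By row, the means were 0.73 ± 0.31 (SD over 4 arrays, 1.66-fold) on arrays 1 to 4 and 1.89 ± 0.13 (SD over 4 arrays, 3.7-fold) on arrays 5 to 8. The mean was 1.275 over the arrays that had RA in Cy5 and 1.34 over the others.

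The level of *Bcl3* differed between slide rows in both channels. After scaling between arrays, its log2 intensity in the vehicle channel ran from 7.77 to 8.38 on arrays 1 to 4 and from 8.61 to 8.92 on arrays 5 to 8. In the RA channel it ran from 8.33 to 9.33 on arrays 1 to 4 and from 10.56 to 10.71 on arrays 5 to 8. Neither channel overlapped between rows, and the gap was wider in the RA channel. Arrays 3 and 4 were brighter than arrays 1 and 2 in both channels.

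*Nfkbia* encodes IkB-alpha, the classical cytoplasmic inhibitor, whose gene is a standard readout of NF-kB activity, and was measured by probe A_44_P261450. Its log2 ratio was 0.09, 0.06, 0.04 and -0.20 on arrays 1 to 4, around 0. On arrays 5 to 8 it was 0.62, 0.655, 0.83 and 0.52, all above the first row. The mean of 0.33 ± 0.13 (SE, 1.25-fold) did not pass the threshold, with an unadjusted limma p of 0.0428, or 0.440 after adjustment. The call depended on which arrays were paired, since p was under 0.01 in 13 of 24 pairings. In the pairing with the fewest calls, which had the highest correlation within pairs, the unadjusted limma p was 0.0421. By row, the means were -0.00208 ± 0.14 and 0.655 ± 0.13 (SD over 4 arrays each), and within arrays 5 to 8 the limma p was 3.71e-05 with dye swaps counted as replicates. Its vehicle level was alike in both rows, with a mean log2 intensity of 9.42 and 9.41, whereas its RA level was 9.42 and 10.06.

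*Tnfrsf1a* encodes the TNF receptor found on most cell types, which carries a death domain, and was measured by probe A_43_P15259. Its log2 ratio was 0.08, 0.22, 0.35 and 0.315 on arrays 1 to 4 and 0.93, 0.93, 0.88 and 0.805 on arrays 5 to 8. All were above 0 and the rows did not overlap. The mean was 0.56 ± 0.13 (SE, 1.48-fold), with an unadjusted limma p of 0.00302, or 0.268 after adjustment. The call was lost without arrays 6 and 5, 6 and 7, 8 and 5 or 8 and 7, where p ran from 0.0102 to 0.0151. By row, the means were 0.24 ± 0.12 (SD over 4 arrays, 1.18-fold) and 0.89 ± 0.06 (SD over 4 arrays, 1.85-fold). The vehicle level overlapped between rows, at 9.43 to 9.74 and 9.59 to 9.71 in log2 intensity, and the RA level did not, at 9.57 to 10.06 and 10.52 to 10.59.

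*Tnfrsf1b* encodes the TNF receptor that is more restricted, chiefly to immune cells, microglia and endothelium, and that lacks a death domain. Its log2 ratio, by probe A_64_P125973, was 0.51, 0.27, 0.42 and 0.18 on arrays 1 to 4 and 0.66, 1.39, 1.13 and 1.14 on arrays 5 to 8. Again all were above 0 and the rows did not overlap, although array 5 was closer to the first row than to the rest of its own. The mean was 0.71 ± 0.15 (SE, 1.64-fold), with an unadjusted limma p of 0.00213, or 0.257 after adjustment. Without arrays 8 and 5 the p was 0.012, and the call was lost. By row, the means were 0.34 ± 0.15 (SD over 4 arrays, 1.27-fold) and 1.08 ± 0.30 (SD over 4 arrays, 2.11-fold). The arrays with RA in Cy5 averaged 0.86 and those with RA in Cy3 0.56, the widest difference between dye orders among the 6 genes.

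**Figure D2:**
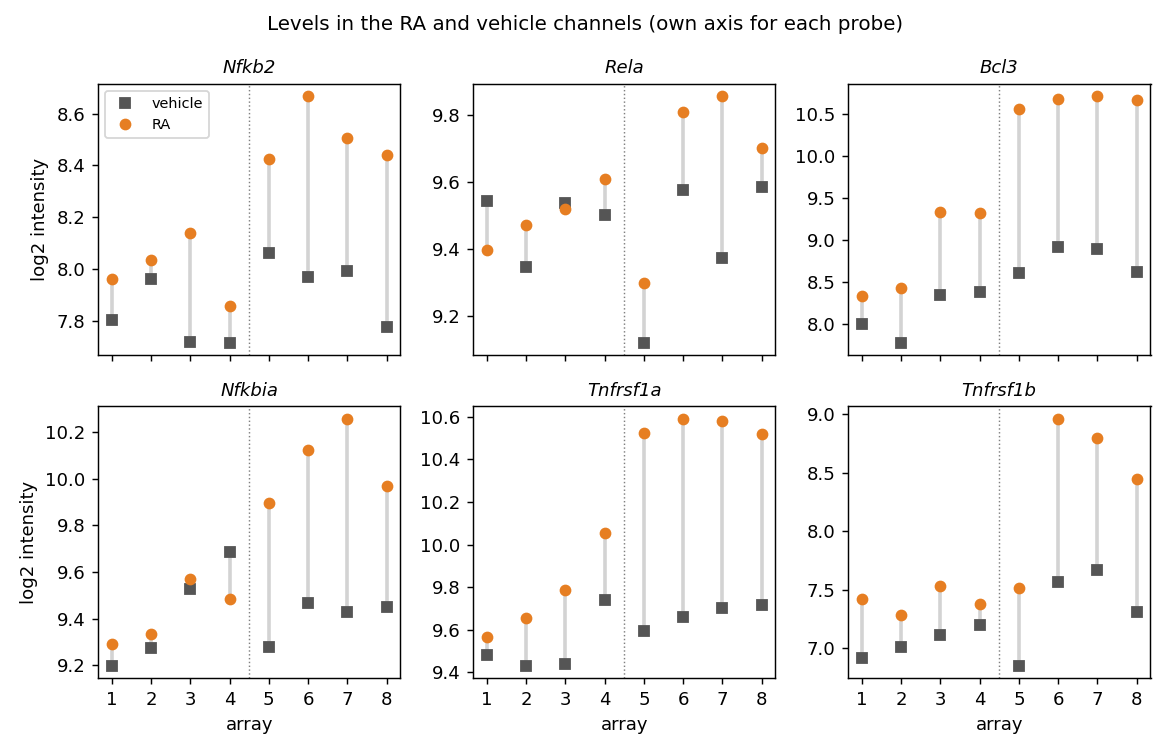
Log2 intensity in the RA channel (orange circles) and the vehicle channel (grey squares) on arrays 1 to 8 after scaling between arrays, with an axis of its own for each gene's probe and a dotted line between the slide rows. The RA level of *Bcl3*, *Nfkb2*, *Nfkbia* and *Tnfrsf1a* is higher on each of arrays 5 to 8 than on any of arrays 1 to 4, while only *Bcl3* shows this in the vehicle channel too.

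Ratios were larger in the second row for all 6 genes. All 4 ratios of arrays 5 to 8 exceeded all 4 of arrays 1 to 4 in 4 of the 6, *Bcl3*, *Nfkbia*, *Tnfrsf1a* and *Tnfrsf1b*, and in 5.3% of all genes. The median of the 6 genes on single arrays was 0.13, 0.175, 0.38 and 0.16 on arrays 1 to 4, and 0.64, 0.815, 0.85 and 0.73 on arrays 5 to 8. The medians of all genes on the same arrays lay between -0.00786 and 0.00773. With slide row as a block in limma, 5 of the 6 genes passed an unadjusted p under 0.01, *Nfkbia* being the addition (unadjusted p of 5.02e-05), beside 12.4% of all genes in either direction. The same 5 passed an adjusted p under 0.05, beside 8.57% of all genes. That fit and those within a row count dye swaps of the same RNA as replicates, and their p values are too small for that reason. Within arrays 1 to 4 alone, the limma p was 0.000214 for *Bcl3*, 0.000415 for *Tnfrsf1b* and 0.00683 for *Tnfrsf1a*. So 3 of the 6 genes were called in the first row, where 3.33% of all genes were in either direction, and 5 in the second, where 9.55% were.

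Of the marker lists, those of monocytes and macrophages and of T cells had medians on arrays 5 to 8 that all exceeded those on arrays 1 to 4. The 6 genes did so too. Of 7 monocyte and macrophage markers, 6 had a named probe and 3 of these were well above background on all arrays (*Lyz2*, *Cd68* and *Plac8*), and all 3 were called higher. The others, *Cd163* (0.17), *Ccr2* (0.12) and *Mrc1* (0.06), were dim and not called. *Ccr2* was well above background on 1 array in the RA channel and 0 in the vehicle channel. The median log2 ratio of the monocyte and macrophage list was 0.07 to 0.53 on arrays 1 to 4 and 0.84 to 1.04 on arrays 5 to 8. Its mean log2 intensity was 8.36 to 9.82 in the RA channel and 7.87 to 8.70 in the vehicle channel. The median of the 5 T cell markers, 1 of them well above background, was 0.0155 to 0.18 on arrays 1 to 4 and 0.36 to 0.68 on arrays 5 to 8, and 0 of them were called. Their mean log2 intensity was 6.67 to 7.67 after RA and 6.73 to 6.96 after vehicle. Of 7 neutrophil markers, 6 had a named probe and 4 were well above background, *S100a9* and *Csf3r* were called higher, and *Elane* was above background on none of the arrays. Their median did not follow the slide row, running from 0.06 to 0.51 on arrays 1 to 4 and from -0.01 to 0.67 on arrays 5 to 8, and their mean log2 intensity from 6.755 to 7.79 after RA and from 6.55 to 6.84 after vehicle. The 7 microglia markers had a median of 0.08, or 0.05 on arrays 1 to 4 and 0.01 on arrays 5 to 8. *Aif1* (0.875, by row 0.51 and 1.24) and *Itgam* (0.87, by row 0.42 and 1.31) were called higher. *Tmem119*, a marker of resting microglia, was called lower (-0.52, by row -0.39 and -0.64). All ratios of arrays 5 to 8 exceeded those of arrays 1 to 4 in 3 of the 7 microglia markers, beside 5.3% of all genes. The same held for 3 of the 6 monocyte and macrophage markers and 3 of the 5 T cell markers. The level of the microglia list was 10.34 to 10.95 after RA and 10.32 to 10.62 after vehicle. The 8 choroid plexus markers had medians of 0.08 to 0.38 on arrays 1 to 4 and of -1.425 to 0.57 on arrays 5 to 8. Those below 0 were on arrays 6 and 7 (-1.37 and -1.425), while arrays 5 and 8 were at 0.30 and 0.57. The lists for neurons, hypothalamic peptides, astrocytes, oligodendrocytes, B cells, endothelium, and tanycytes and ependyma had median log2 ratios over all arrays from -0.188 to 0.0164. Within them *Gfap*, the filament gene of reactive astrocytes, was called higher (1.40, 0.97 on arrays 1 to 4 and 1.83 on arrays 5 to 8), as was *Vim* (0.625, 0.515 and 0.735), while the astrocyte gap junction gene *Gja1* (-0.22) and the peptide gene *Cartpt* (-0.42) were called lower. The hypothalamic peptides had a median of 0.12 on arrays 1 to 4 and of -0.36 on arrays 5 to 8. On single arrays it was -0.59 and -0.45 on arrays 5 and 8 but 0.02 and -0.02 on arrays 6 and 7. The part of these cells in the result was not tested, and in bulk tissue more cells of a type and more RNA per cell cannot be told apart.

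**Figure D3:**
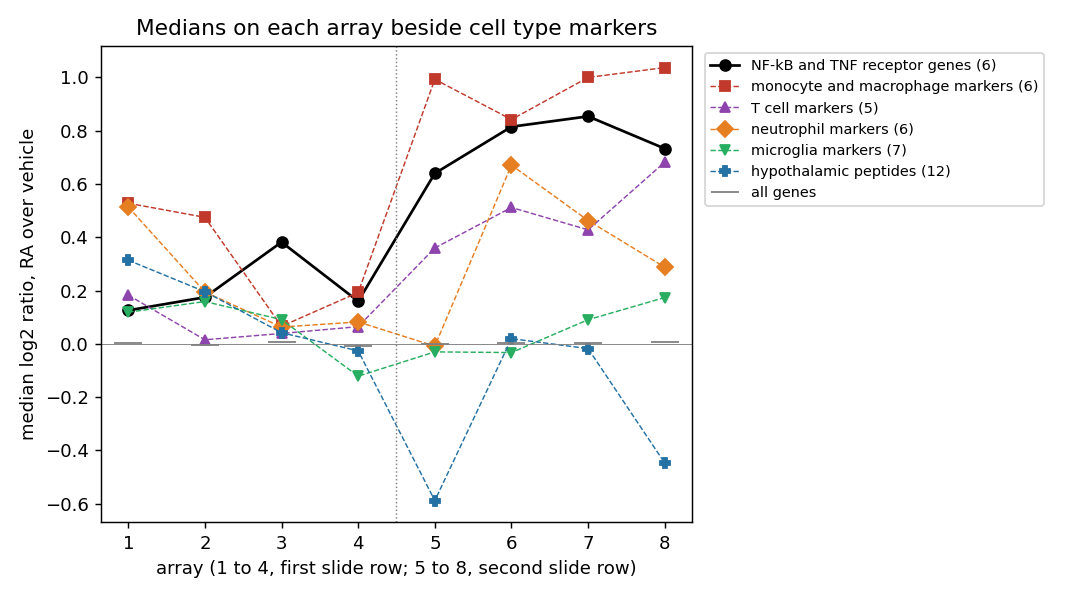
Median log2 ratio of RA over vehicle on arrays 1 to 8 for the 6 measured genes (black), 5 marker lists and all genes (grey bars), with the number of genes in brackets and a dotted line between the slide rows. The black line and the monocyte and macrophage markers are highest on arrays 5 to 8, from 0.64 and 0.84 up, and all genes stay near 0.

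The rest of the pathway was taken from a list of 106 genes, of which 87 had a named probe. Of these, 21 were called higher and 0 lower at an unadjusted p under 0.01, beside 3.52% and 0.792% of all genes, and the median log2 ratio was 0.12. This count was 3 with Agilent's log ratio, 4 after plain background subtraction and 33 with the pair as a random block. In these settings 1.42%, 1.25% and 6.87% of all genes were called in either direction. Without the genes known as targets of NF-kB, 11 of 59 were called higher, with a median of 0.07. In limma 0 of the 87 passed after adjustment over all probes at 0.05. With the pair as a random block 5 passed, with 8 independent arrays 19 and with slide row as a block 34. These counts stand beside 238, 934 and 2059 of all probes. At an unadjusted p under 0.05, 35 of the 87 were higher and 2 lower, beside 1286 and 693 of all 15159 genes.

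The p values given below are unadjusted and from limma, and for the called genes that are named the adjusted p lay between 0.222 and 0.306. Each count of genes called higher by role stands beside 3.52% of all genes. Among the ligands, 2 of 14 were called higher. *Tnf*, the ligand of both receptors, had a log2 ratio of 0.18 to 1.37, above 0 on all 8 arrays, and a mean of 0.82 ± 0.145 (SE, 1.76-fold, unadjusted p of 0.000669), with 0.52 in the first row and 1.115 in the second. *Tnfsf13*, which encodes the B cell factor APRIL, rose by 0.32 (unadjusted p of 0.00234) to about the same extent in both rows, 0.28 and 0.36. *Cd70* had a mean of -0.15 (unadjusted p of 0.0219) and did not pass. Among the other receptors, 4 of 18 were called higher. They were *Cd40*, a costimulatory receptor of antigen-presenting cells (0.69, unadjusted p of 0.00231), *Ltbr*, the lymphotoxin-beta receptor upstream of *Nfkb2* (0.30, unadjusted p of 0.00498), the neurotrophin receptor *Ngfr* (0.32, unadjusted p of 0.00804) and the death receptor *Fas*. *Fas* was named after its value was seen (0.19, unadjusted p of 0.00767) and was well above background on only 4 arrays in the RA channel and 1 in the vehicle channel. *Ngfr* had a larger mean in the first row, 0.435, than in the second, 0.21, and *Cd40* a smaller one, 0.31 against 1.07. The calls of *Ngfr* and *Ltbr* were not firm. That of *Ngfr* was lost in 16 of 35 alternatives, among them arrays 5 to 8 alone (unadjusted p of 0.103), and that of *Ltbr* in 13, among them arrays 1 to 4 alone (0.19, unadjusted p of 0.0616).

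Between receptors and NF-kB the lists were short, and differences between roles were not tested. Among 10 adaptors, 3 were called higher, *Myd88*, the adaptor of Toll-like and interleukin receptors (0.61, unadjusted p of 0.0027), *Birc3*, a ubiquitin ligase of the TNF receptor complex (0.63, unadjusted p of 0.00471), and *Casp8*, the caspase of death receptors. *Casp8*, named after its value was seen, had a mean of 0.17 (unadjusted p of 0.00638) and was above background on 3 arrays in the RA channel and 0 in the vehicle channel. *Ripk1*, a kinase of the same complex, had a mean of 0.21 (unadjusted p of 0.0147). Among 8 kinases, 2 were called higher, *Ikbke* (0.47, unadjusted p of 0.000985), an IkB kinase-related kinase, and *Map3k8*, which links the pathway to MAP kinases (0.66, unadjusted p of 0.00977). The call of *Map3k8* was lost in 19 of 35 alternatives, among them the deposited normalised values (unadjusted p of 0.015). Its mean was 0.17 in the first row and 1.145 in the second, and those of *Myd88* were 0.27 and 0.94 and of *Birc3* 0.23 and 1.03. *Ikbkb*, the catalytic kinase of the canonical IkB kinase complex, had a mean of 0.08 (unadjusted p of 0.111). Of 7 ubiquitin regulators, 0 were called at an unadjusted p under 0.01 or 0.05, and their means ran from -0.02 to 0.13, the latter in *Tnip1*. With 3.52% and 8.48% of all genes called higher at these thresholds, 0 of 7 is near the share of all genes. The other IkB genes did not pass either, with means of 0.21 for *Nfkbie* (unadjusted p of 0.0135) and 0.05 for *Nfkbib* (unadjusted p of 0.473).

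Of 28 textbook target genes, 10 were called higher, beside 3.52% of all genes, and the median was 0.61. Only 17 of the 28 were well above background, and *Il6* and *Ptgs2* were so on 0 arrays in either channel. *Cfb*, which encodes complement factor B, had a log2 ratio of 0.296 to 2.47 and a mean of 1.55 ± 0.275 (SE, unadjusted p of 0.000693). *Icam1*, an adhesion molecule for leukocytes, had a mean of 0.65 (unadjusted p of 0.000885), with 0.36 in the first row and 0.95 in the second. *C3*, the central complement component, had the same mean, 0.65 (unadjusted p of 0.00104), with means of 0.68 in the first row and 0.62 in the second. All 3 were above 0 on 8 of 8 arrays. In the target list, 12 of 28 genes had all ratios of arrays 5 to 8 above those of arrays 1 to 4, beside 5.3% of all genes.

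**Figure D4:**
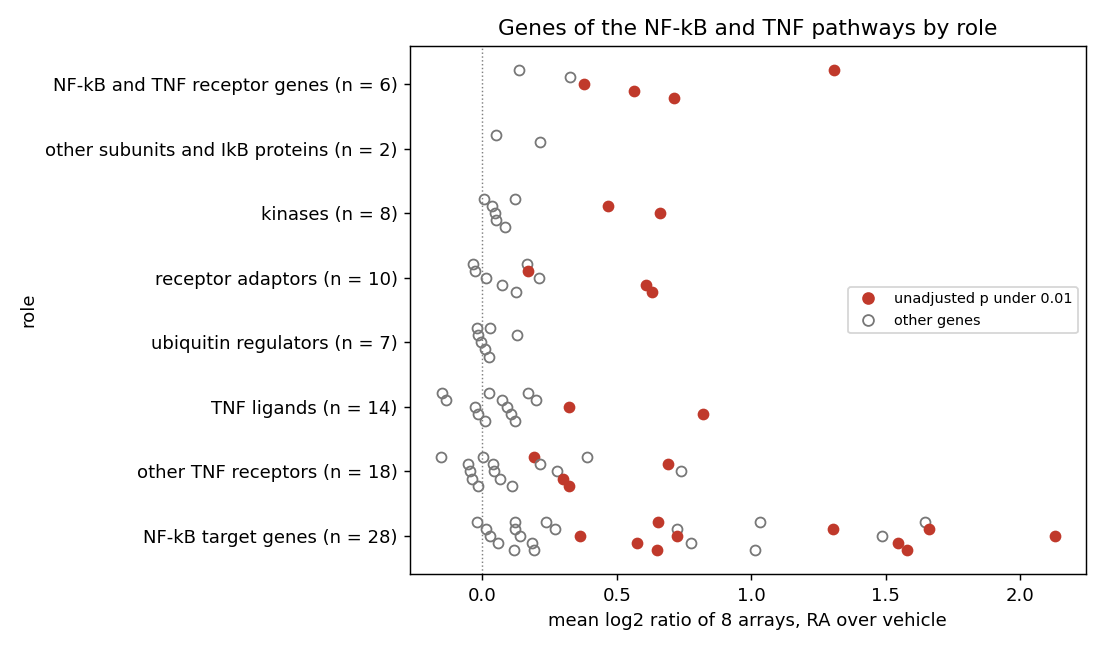
Mean log2 ratio of RA over vehicle over 8 arrays for the 6 measured genes (top) and 87 further genes of the pathway by role, each point a gene, filled in red at an unadjusted p under 0.01 in limma. The called genes all lie above 0, and the ubiquitin regulators lie between -0.02 and 0.13.

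The genes closest to *Bcl3* in their ratios over the 8 arrays were sought among 9462 genes well above background on every array in both channels, by the root mean square difference. The closest was *Chi3l1*, a secreted chitinase-like protein, with a difference of 0.14 on the log2 scale and a mean ratio of 1.23. Others among the closest were *Mefv* (0.18), which encodes the inflammasome protein pyrin, the necroptosis kinase *Ripk3* (0.201) and the membrane-binding annexin *Anxa3* (0.21). Each of these 4 had a mean of 0.68 to 0.79 on arrays 1 to 4 and of 1.66 to 1.95 on arrays 5 to 8, beside 0.73 and 1.89 for *Bcl3*. As they were picked for this likeness, it is a description without a test.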

How the data were processed

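The authors deposited, for each of 8 arrays, the scanner output of Agilent Feature Extraction, with Cy3 and Cy5 intensity per spot on a linear scale, Agilent's log10 ratio, and marks per spot for background, saturation and outliers (other values of 0 or 1). A series table of normalised log2 ratios, deposited too and made in limma with loess, already runs as RA over vehicle.

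Here, median signals were background-corrected with normexp (offset 50), outlier spots were dropped, loess was applied within arrays, spots of 1 probe were averaged and log2 ratios were turned to RA over vehicle (R 4.3.3, limma 3.58.1). Channel levels were scaled by Aquantile. Because it is not stated which arrays share RNA, limma was fitted on 4 pair means, 1 array of each dye order per pair, in all 24 pairings, and each probe kept its largest p and that pairing's standard error. The pairing of arrays 1 with 2, 3 with 4, 6 with 7 and 8 with 5 had the highest correlation within pairs, 0.371. It also had the fewest probes at an unadjusted limma p under 0.01, 1081. Only arrays 6 and 7 had choroid plexus medians below 0 (-1.37 and -1.425). Arrays 5 and 8 had the lowest peptide medians (-0.59 and -0.45). The pairings are therefore not equally likely, but the labels do not state the true one. Benjamini-Hochberg adjustment covered 30367 probes. Transcript accessions, without versions, named 18006 probes (59.3%) through RefSeq genes of GRCr8, and the brightest probe stood for a gene. In simulated data with 30347 probes, 0.677% of unchanged probes passed p under 0.01, and 96% of those changed by 0.5 on the log2 scale were recovered. The simulated data held no difference between slide rows, and the changed probes were drawn at random. The 6 genes had SDs over 8 arrays of 0.185 to 0.657, above the median of 0.157 over all genes. Recovery at such SDs was not tested.

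The 10 genes and all lists were chosen with earlier results of these data known. The text names the 10 genes, up to 3 bright genes per role by smallest p, the 5 genes most like *Bcl3* (1 of which is not reported here), and exceptions marked as such. Alternatives covered background, normalisation, scaling, filters, pairing, dye order, slide row, variance trend, probe choice and 16 couples of arrays left out.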

Additional observations from a re-analysis of the deposited data

How the results depend on the processing

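The median log2 ratio of the 6 genes stayed above 0 in all 35 alternatives, from 0.22 (arrays 1 to 4 alone) to 0.77 (arrays 5 to 8 alone), and from 0.377 to 0.584 with couples of arrays left out. The count of 4 genes called at an unadjusted p under 0.01 fell to 2 with plain background subtraction (*Bcl3* and *Tnfrsf1b*) and to 0 with Agilent's log ratio, where p was 0.0105 for *Bcl3*, 0.011 for *Tnfrsf1b*, 0.0216 for *Nfkb2* and 0.0335 for *Tnfrsf1a* in limma. These settings called 1.25% and 1.42% of all genes, and the cause was not tested. With couples of arrays left out the count ran from 1 to 5. It was highest without arrays 3 and 4, where 4.87% of all genes were called. It was lowest without arrays 8 and 5, where 2.11% were called and only *Bcl3* of the 6 passed (unadjusted limma p of 0.00215). *Nfkbia* turned to -0.00208 on arrays 1 to 4 alone, and no other gene of the 6 changed direction.

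The count of 21 called pathway genes was 4 with plain subtraction, 3 with Agilent's log ratio, 39 in the pairing with the most calls, 34 with 8 independent arrays, 36 with slide row as a block, 34 on arrays 5 to 8 alone and 33 with the pair as a random block. The share of all genes called was 1.25% with plain subtraction and 1.42% with Agilent's log ratio. It rose in the last 5 settings, to 12.5%, 9.96%, 12.4%, 9.55% and 6.87%. With couples left out the count was 9 to 25, beside 2.11% to 4.87% of all genes. Genes near 0 changed sign. On arrays 1 to 4 alone *Nfkbib* was at -0.0822 and *Rnf31* at -0.039, and with Agilent's log ratio *Rnf31* was at -0.00561. With RA in Cy3 alone *Nfkbib* was at -0.017, *Ikbkb* at -0.0452 and *Rbck1* at -0.0302. With couples left out *Rnf31* ran from -0.0252 to 0.0746 and *Nfkbib* from -0.0127 to 0.106.

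Adjusted p values rest on the pairing. In limma, 5 of the 6 genes passed an adjusted p under 0.05 in the pairing with the most calls (beside 2048 of all 30367 probes), 4 with 8 independent arrays (beside 934 probes) and 0 in the pairing with the fewest calls (beside 0 probes). The pairing with the most calls joined both slide rows in every pair, with a correlation within pairs of -0.215. The difference between rows is averaged out there, so its p values are too small unless those arrays share RNA. In the pairing with the fewest calls the correlation was 0.371. The fit with 8 independent arrays counts dye swaps as replicates. Signal over background limited only the second *Rela* probe among the probes of these genes.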
